A study of Mus musculus with 16 samples.

Results

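Open chromatin around 3 genes of the myeloid fate decision, Irf8, Gfi1 and Klf4, was described in haematopoietic progenitors of mice. The members were all regions with an ATAC-seq peak within the span of each gene or 80 kb either side of it. ATAC-seq uses the Tn5 transposase to cut and tag accessible DNA, so a peak is a stretch that was cut more often than its surroundings. Peaks of the 8 deposited lists that overlapped were merged into 122020 union regions on the mouse build mm10 (GRCm38). Of these, 71 were members: 38 around Irf8, 17 around Gfi1 and 16 around Klf4.

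The cells were labelled as haematopoietic progenitors of the multipotent progenitor (MPP) type, and all mice were 21 days old. The 16 samples formed 8 groups of 2 in 2 sets, and the labels do not say how the sets differ. In set 1 the genotypes were wild type, Flt3-ITD, Runx1-het and the combination Flt3-ITD/Runx1-het. Flt3-ITD lengthens and activates a receptor tyrosine kinase by an internal tandem duplication, and Runx1-het leaves 1 working copy of the transcription factor Runx1. In set 2 they were wild type, NUP98-HOXD13, Flt3-ITD and NUP98-HOXD13/Flt3-ITD, where the fusion gene joins a nuclear pore protein to a homeobox factor and occurs in leukaemia. Both samples of a group named 1 pooled peak list, so there was 1 list per group, no spread between samples, no test between genotypes and no known read depth. Which promoter drives the fusion gene, and whether animals were pooled, is not stated in the labels. In bulk material a weaker peak in all cells and an open site in fewer cells cannot be told apart.

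Irf8 is an interferon regulatory factor that directs progenitors towards monocytes and dendritic cells and restrains the granulocyte fate. Gfi1 is a zinc-finger repressor needed for neutrophil development, and it and Irf8 are known to oppose each other in progenitors with both options open. Klf4 is a Krüppel-like zinc-finger factor that acts downstream of Irf8 in monocyte differentiation. The 3 genes thus cover both sides of this fate choice.

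The promoters are shown because each start site lay in a region that had a peak in all 8 lists, and the printed bases lay wholly inside that region. Each run is the 250 bases before the first start site in RefSeq (build GRCm38.p6), read 5′ to 3′ on the strand of the gene. The windows are chr8:120736108-120736357 on the plus strand for Irf8, chr5:107725806-107726055 on the minus strand for Gfi1 and chr4:55532476-55532725 on the minus strand for Klf4. Capitals mark matches to motifs searched on both strands.
Irf8 promoter: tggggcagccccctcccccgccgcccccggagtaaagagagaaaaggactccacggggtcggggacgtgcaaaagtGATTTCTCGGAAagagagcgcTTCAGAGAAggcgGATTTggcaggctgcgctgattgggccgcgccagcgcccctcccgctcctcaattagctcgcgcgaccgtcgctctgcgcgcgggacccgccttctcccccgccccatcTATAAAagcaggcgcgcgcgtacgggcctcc
Gfi1 promoter: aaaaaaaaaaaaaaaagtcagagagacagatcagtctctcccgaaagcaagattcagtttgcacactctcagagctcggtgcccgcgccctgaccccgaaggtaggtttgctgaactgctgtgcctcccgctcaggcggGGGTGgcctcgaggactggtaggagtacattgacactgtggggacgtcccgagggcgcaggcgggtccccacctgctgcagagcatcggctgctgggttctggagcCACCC
Klf4 promoter: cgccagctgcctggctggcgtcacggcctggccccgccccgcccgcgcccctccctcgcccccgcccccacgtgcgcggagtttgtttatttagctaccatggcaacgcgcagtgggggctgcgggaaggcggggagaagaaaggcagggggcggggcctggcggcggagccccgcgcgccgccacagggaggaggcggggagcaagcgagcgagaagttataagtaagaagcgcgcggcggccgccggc

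The Irf8 promoter held the STAT-type motif TTCNNNGAA at 2 places, TTCTCGGAA from -171 to -163 and TTCAGAGAA from -153 to -145 relative to the start site. STAT proteins carry cytokine and interferon signals, and 7.02% of 32851 mouse promoters of the same length held that motif. The Irf8 window also held the core motif of GFI1 proteins, AAATC, at 2 places on the minus strand, the first of which overlaps the first STAT-type match. AAATC was present in 32.7% of all promoters. A TATAAA stood at -31, a motif in 12.4% of promoters. The Gfi1 promoter held the Krüppel-like factor motif CACCC at 2 places, at -111 to -107 on the minus strand and at -5 to -1, and 52.0% of promoters held it. Searches for the IRF motif (GAAA, any 2 bases, GAAA, in 2.98% of promoters), GAGGAA (PU.1 and other ETS factors, 23.3%) and TGTGGT (RUNX factors, 14.0%) gave no match in the 3 windows. The Klf4 window held none of the 7 motifs searched. Its G and C content was 74.0%, against 67.2% for Irf8, 59.2% for Gfi1 and a median of 52.4% over all promoters. These matches are letters in a window and not measured binding.

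The cells carried open start sites of progenitor genes in every list. Of 12 progenitor markers, 11 had a start site in the table used, and all 11 had a peak there in all 8 lists, among them Kit, Cd34 and Flt3. Of 3 testable B-cell genes, Cd79a alone had one, in 5 of the lists, and of 3 T-cell genes, Lck alone had one, in all 8. None of the 3 erythroid and 3 hepatocyte genes had one. The set-2 Flt3-ITD list stood apart with 84080 peaks, against 113325 to 138514 in the other 7. Its median −log10 p was 15.8, against 24.7 to 38.5. Its missing regions are therefore counted with and without it.

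**Figure D1:**
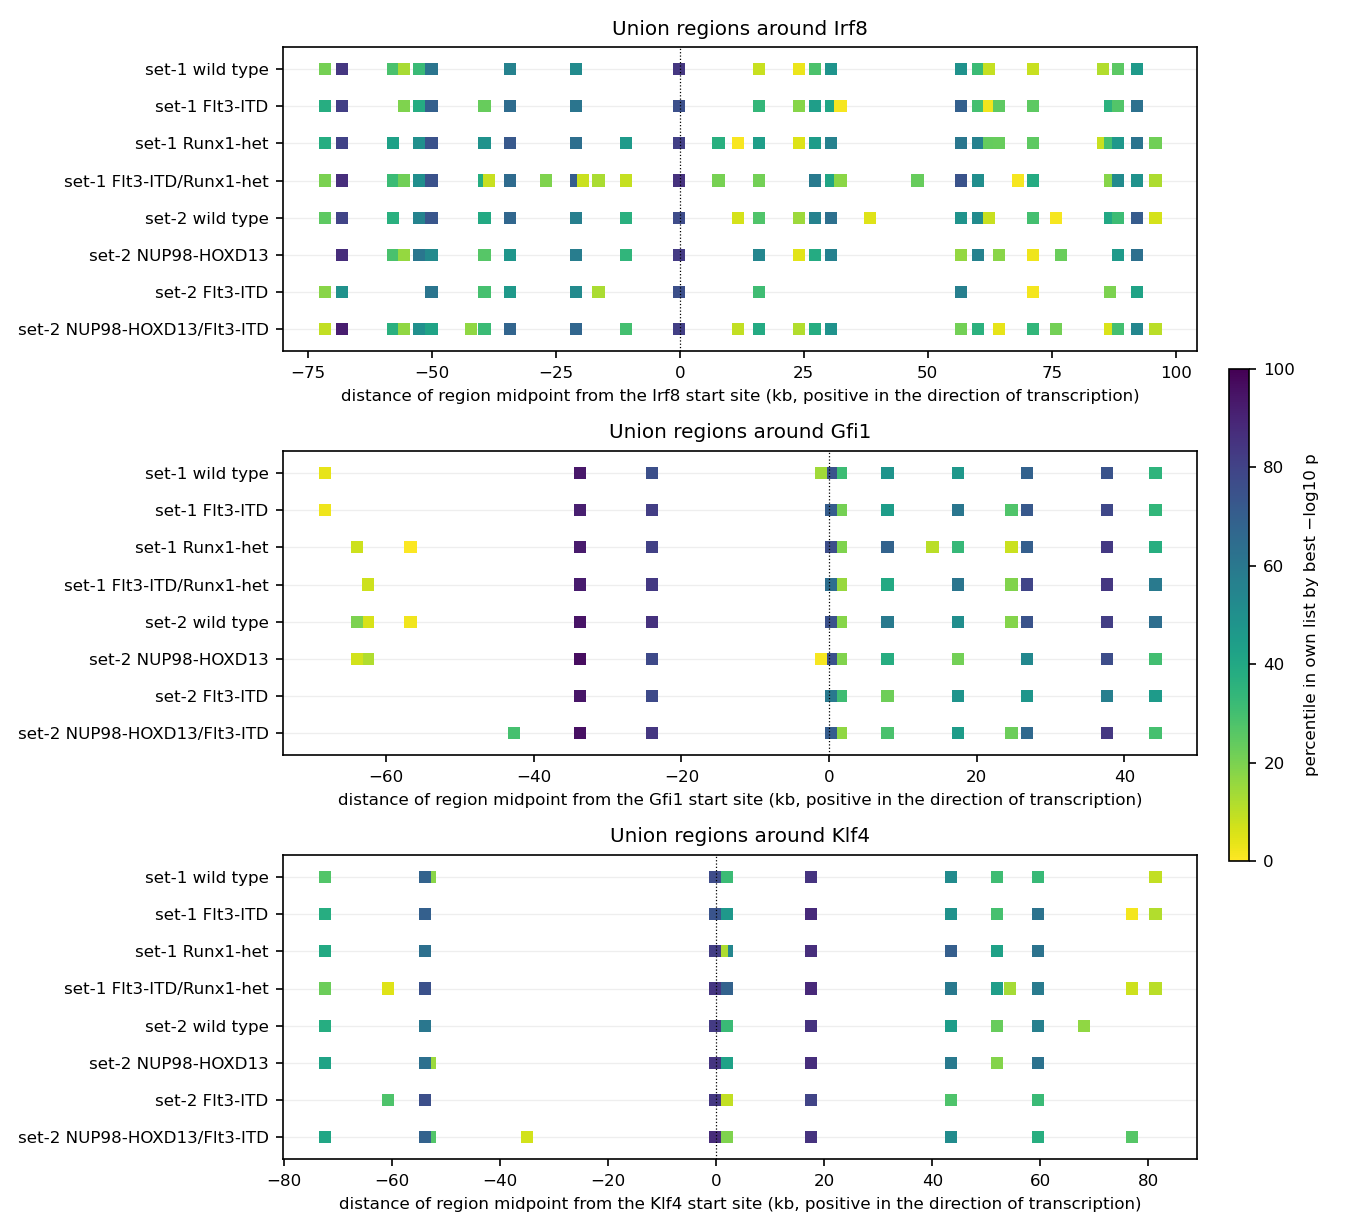
Union regions around Irf8, Gfi1 and Klf4, plotted by distance from the start site (kb, horizontal axis) in each of the 8 peak lists (vertical axis). A square marks a peak and its colour gives the percentile of the region within that list by best −log10 p. Irf8 has 38 regions over its window against 17 at Gfi1 and 16 at Klf4, and the darkest column at Gfi1, at -33.7 kb, is filled in all 8 lists.

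The Irf8 surroundings held many regions, few of them in every list. Its 38 regions came to 21.1 per 100 kb of window, against 10.1 at Gfi1 and 9.68 at Klf4. Such a count was not particular to Irf8. Among the genes of myeloid fate described below, Nr4a1 had 42 regions and Elane and Prtn3 38 each. Of the 38 at Irf8, 9 had a peak in all 8 lists and 8 in 1 list. At Gfi1, 9 of 17 regions were in all lists and 2 in 1 list. At Klf4, 6 of 16 were in all lists and 4 in 1 list. Over the 3 genes, 24 of 71 regions (33.8%) had a peak in all 8 lists, where the share over all union regions was 34.1%. Regions in 1 list made up 14 of 71 (19.7%), with 18.9% over all union regions. Without the short set-2 Flt3-ITD list, 30 of 71 (42.3%) were in the other 7 lists, beside 39.7% of all regions. Of the 6 members missing from that list alone (background 5.6%), 5 lay around Irf8, at -52.6, +27.2, +30.5, +60.1 and +88.4 kb, and 1 at -72.5 kb from Klf4. Regions in all 8 lists had a median width of 1080.5 bp, and those in 1 list 261.5 bp. A union region spans all the peaks merged into it, so peaks from more lists widen it by construction.

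Strength within a list is given here by the −log10 p of the authors' peak caller, and by the percentile of the region among all regions of its own list, where 100 is the strongest. A region in the top 25% of its list was counted as strong. The set-1 lists held 6 strong member regions in wild type, 6 in Flt3-ITD, 8 in Runx1-het and 9 in Flt3-ITD/Runx1-het. The set-2 lists held 8 in wild type, 7 in NUP98-HOXD13, 6 in Flt3-ITD and 7 in NUP98-HOXD13/Flt3-ITD. As shares of the 41, 43, 48, 52, 47, 42, 29 and 47 member regions in those lists, in the same order, these were 13.95% to 20.7%, under the 25% that the definition gives over all regions. At Irf8 the strong regions were the start site, in 8 lists, and -68.2 kb, in 7. At Gfi1 they were -33.7 and -24.0 kb in all 8 lists, +37.6 kb in 6, the start in 2 and +26.8 kb in 1. At Klf4 they were +17.5 kb in 8 lists, the start in 7 and -53.9 kb in 2.

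In every list the highest −log10 p of the 3 genes belonged to a region upstream of Gfi1. The -33.7 kb region (chromosome 5, 107758989 to 107759975) lies inside the span of the neighbouring gene Evi5, where Gfi1 enhancers have been described. Its best −log10 p in set 1 was 292 in wild type, 262 in Flt3-ITD, 297 in Runx1-het and 280.3 in Flt3-ITD/Runx1-het. Set 2 gave 479 in wild type, 388 in NUP98-HOXD13, 104 in Flt3-ITD and 333 in NUP98-HOXD13/Flt3-ITD. In each of the 8 lists this was the highest value of the 9 always-present Gfi1 regions, and by fold enrichment it was also first in all 8. Its percentile ran from 91.8 to 96.8, and the summits of the 8 lists lay within 35 bp of each other. A second region inside Evi5, at -24.0 kb (107749162 to 107750534), had −log10 p values of 114, 153, 143 and 160.5 in set 1 and 247, 102, 44.8 and 149.5 in set 2, in the same order of genotypes. It took place 2 or 3 of the 9 in every list.

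The Gfi1 start region (107724714 to 107726503) was weaker than both. Its −log10 p was 108 in wild type, 100.2 in Flt3-ITD, 120 in Runx1-het and 76.9 in Flt3-ITD/Runx1-het of set 1. Set 2 gave 151 in wild type, 89.2 in NUP98-HOXD13, 26.6 in Flt3-ITD and 82.5 in NUP98-HOXD13/Flt3-ITD. The promoter was thus outranked by the -33.7 kb region in all 8 lists. Downstream of the gene, +37.6 kb (107687715 to 107688794) and +26.8 kb (107698458 to 107699569) were also open in every list, at −log10 p of 25.1 to 202 and 20.3 to 146. A second Gfi1 start site lay in the region at +1.6 kb (107723890 to 107724553), which took place 8 or 9 of 9 in every list. The 5 Gfi1 regions over 40 kb from the span included none in all 8 lists.

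**Figure D2:**
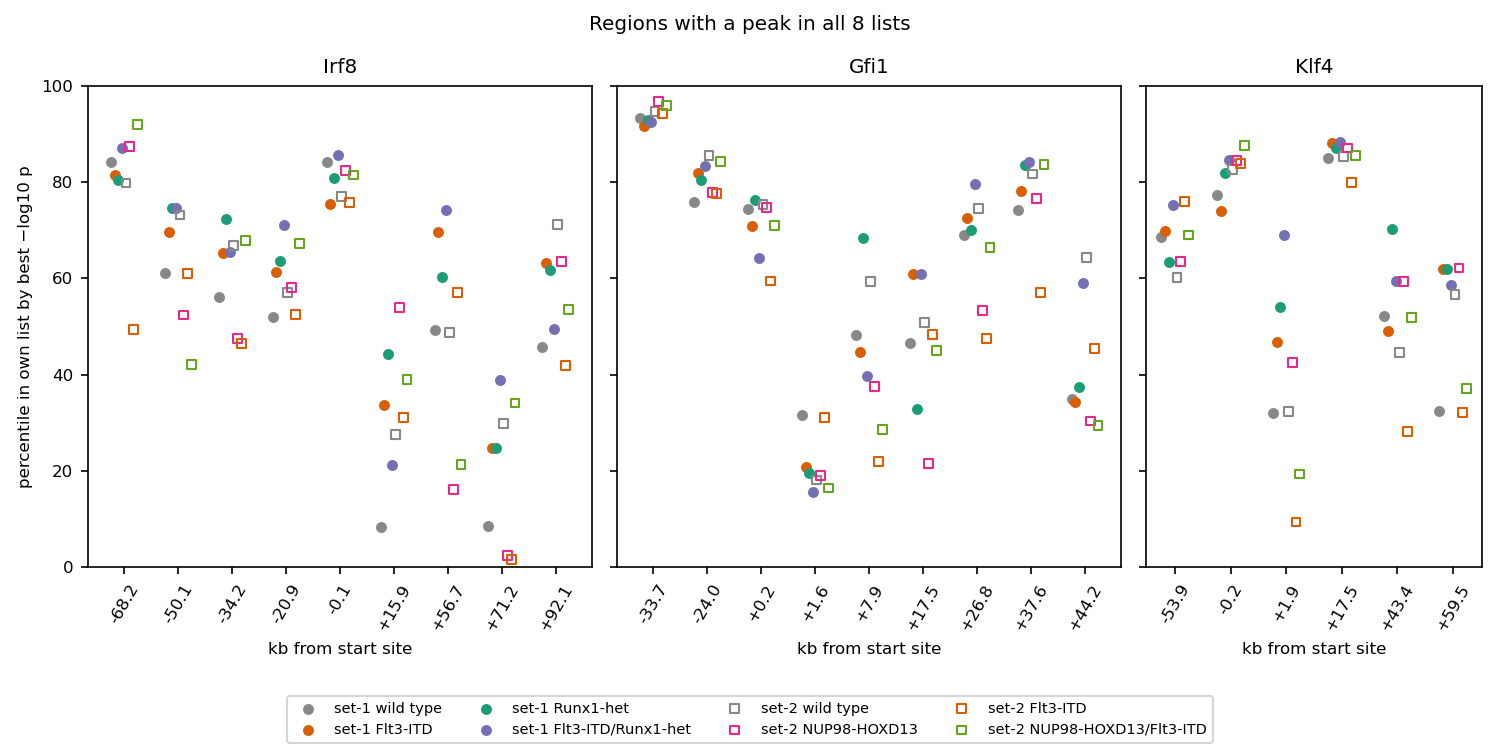
Percentile within its own list by best −log10 p (vertical axis) of each region with a peak in all 8 lists, by distance from the start site (horizontal axis), 1 point per list, for 9 Irf8, 9 Gfi1 and 6 Klf4 regions. Gfi1 -33.7 kb stays between 91.8 and 96.8, while Irf8 +56.7 kb spreads from 16.1 to 74.3 and Klf4 +1.9 kb from 9.36 to 69.1.

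At Irf8 the start region (chromosome 8, 120735697 to 120736890) was first or second of the 9 always-present regions in each list. Its −log10 p was 163 in wild type, 118 in Flt3-ITD, 146 in Runx1-het and 180.3 in Flt3-ITD/Runx1-het of set 1. In set 2 it was 163 in wild type, 128 in NUP98-HOXD13, 42.3 in Flt3-ITD and 129.8 in NUP98-HOXD13/Flt3-ITD. The -68.2 kb region (120667548 to 120668831) was the other strong one, at 165, 151, 142 and 196 in set 1 and 184, 169, 20.9 and 240.2 in set 2, in the same order. It lies at the ends of the spans of Cox4i1 and Emc8, and no measurement here ties it to Irf8. It was first in 6 lists by −log10 p but in 1 list by fold enrichment, and took place 5 in set-2 Flt3-ITD. By fold enrichment the Irf8 start was first in the other 7.

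Each of the 9 always-present Irf8 regions took different places from list to list. By −log10 p, -68.2 kb took places 1 to 5, -34.2 and +92.1 kb 3 to 7, and +15.9 kb 5 to 9. A pair of distal regions is described here, -50.1 kb with places 2 to 6 and +56.7 kb with places 3 to 9. The -50.1 kb region (120685730 to 120686874) and the +56.7 kb region (120792374 to 120793695) lie in the spans of the long non-coding RNA genes Gm39265 and Gm33199. Elements at about these distances have been described as Irf8 enhancers in myeloid cells. The +56.7 kb region had −log10 p values of 49.5 in wild type, 96.1 in Flt3-ITD, 68.0 in Runx1-het and 108 in Flt3-ITD/Runx1-het of set 1. In set 2 it had 59.3 in wild type, 14.0 in NUP98-HOXD13, 25.1 in Flt3-ITD and 19.3 in NUP98-HOXD13/Flt3-ITD. Its fold enrichment was 10.6, 13.7, 11.1 and 14.5 in set 1 and 10.05, 4.80, 10.8 and 4.77 in set 2, in the same order. These folds are not comparable between lists, whose read depth is unknown. By fold among the regions of its own list, the +56.7 kb region stood at percentile 18.7 with the fusion gene alone. With the fusion gene and Flt3-ITD together it stood at 16.5, and in the lists without the fusion gene at 50.6 to 67.7. Among the 9 always-present Irf8 regions it took place 3 in both single Flt3-ITD lists and place 4 in Flt3-ITD/Runx1-het. It took place 6 in the wild type of set 1, 7 in that of set 2 and in Runx1-het, 8 with NUP98-HOXD13 and the last, 9, with NUP98-HOXD13/Flt3-ITD.

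The -50.1 kb region had −log10 p values of 69.7 in wild type, 95.9 in Flt3-ITD, 112 in Runx1-het and 110.2 in Flt3-ITD/Runx1-het of set 1. The set-2 values were 138 in wild type, 41.5 in NUP98-HOXD13, 27.7 in Flt3-ITD and 33.8 in NUP98-HOXD13/Flt3-ITD. It took places 2 to 4 of 9 in the 6 lists without NUP98-HOXD13 and place 6 in both with it. By fold enrichment these places overlapped, since it took place 5 in both set-1 Flt3-ITD and NUP98-HOXD13 and place 7 in NUP98-HOXD13/Flt3-ITD. Its summits lay within 26 bp of each other over the 8 lists, against 155 bp at +56.7 kb.

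Since the lists differ in length, the 41626 regions present in all 8 lists were also ranked among themselves, so that every list ranked the same regions. This ranking was chosen after the values had been seen. On it the +56.7 kb region stood at percentile 20.6 in wild type, 43.7 in Flt3-ITD, 26.7 in Runx1-het and 50.7 in Flt3-ITD/Runx1-het of set 1. In set 2 it stood at 11.5 in wild type, 1.41 in NUP98-HOXD13, 43.0 in Flt3-ITD and 3.05 in NUP98-HOXD13/Flt3-ITD. The 3 lists with Flt3-ITD and no fusion gene lay above the 3 lists with neither, and both fusion lists lay below all others. The -50.1 kb region stood at 35.4, 43.7, 50.2 and 51.4 in set 1 and at 44.8, 22.0, 47.8 and 13.8 in set 2, in the same order. Here too both fusion lists were the lowest. The Irf8 start stayed between 52.2 and 72.5, with the fusion lists at 67.5 and 66.8, inside the range of the others. At Irf8 -68.2 kb the spread between lists was 51.5 points, against 49.2 at +56.7 kb and 37.6 at -50.1 kb.

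Of the 24 always-present members, 2, Irf8 -50.1 and +56.7 kb, were below all other lists in both fusion lists, beside 9.7% of all shared regions. The count is therefore near the background. The -50.1 kb region lay 13.4 points under the lowest list without the fusion, a step reached by 13.5% of the 4039 shared regions in the same order. For +56.7 kb the step was 8.49 points, reached by 26.8% of them. Ranked by fold enrichment, 3 members were below all other lists, Gfi1 +44.2 kb joining these 2, beside 8.02% of all shared regions. The Irf8 steps were then 11.0 and 17.0 points, reached by 23.9% and 11.8% of the 3339 regions in that order. Placed above all other lists in both fusion lists were 2 members, Irf8 -68.2 kb and Gfi1 -33.7 kb (background 11.1%), and by fold enrichment only the former (background 10.3%). The order for Flt3-ITD without the fusion was shared by 2 members, Irf8 +56.7 kb and Gfi1 +17.5 kb (background 7.18%), and by fold enrichment by 3, Klf4 -53.9 kb being added (background 6.14%). The reverse order held for 2 members, Gfi1 +7.9 kb and the Gfi1 start (background 6.5%), and for none by fold enrichment (background 5.59%). Over all 4 Flt3-ITD lists, the Gfi1 start was below every list without the mutation (1 of 24, background 1.63%), its highest value with it being 48.81 and its lowest without it 48.88. By fold enrichment it was not below. No member was above in all 4 (background 1.72%). With Runx1-het, 2 members were above all lists without it, Irf8 -50.1 kb and Klf4 +1.9 kb (background 2.83%), and 0 below (background 2.77%). By fold enrichment 4 members were above (background 2.73%), Irf8 -20.9 kb, Gfi1 +7.9 kb, Klf4 +43.4 kb and Klf4 +1.9 kb, and Irf8 -50.1 kb was not, and 0 were below (background 3.41%). Over the 24 members the median spread between the 8 lists was 27.0 points, and over all shared regions it was 25.4. The effect of list or set on these orders was not tested.

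**Figure D3:**
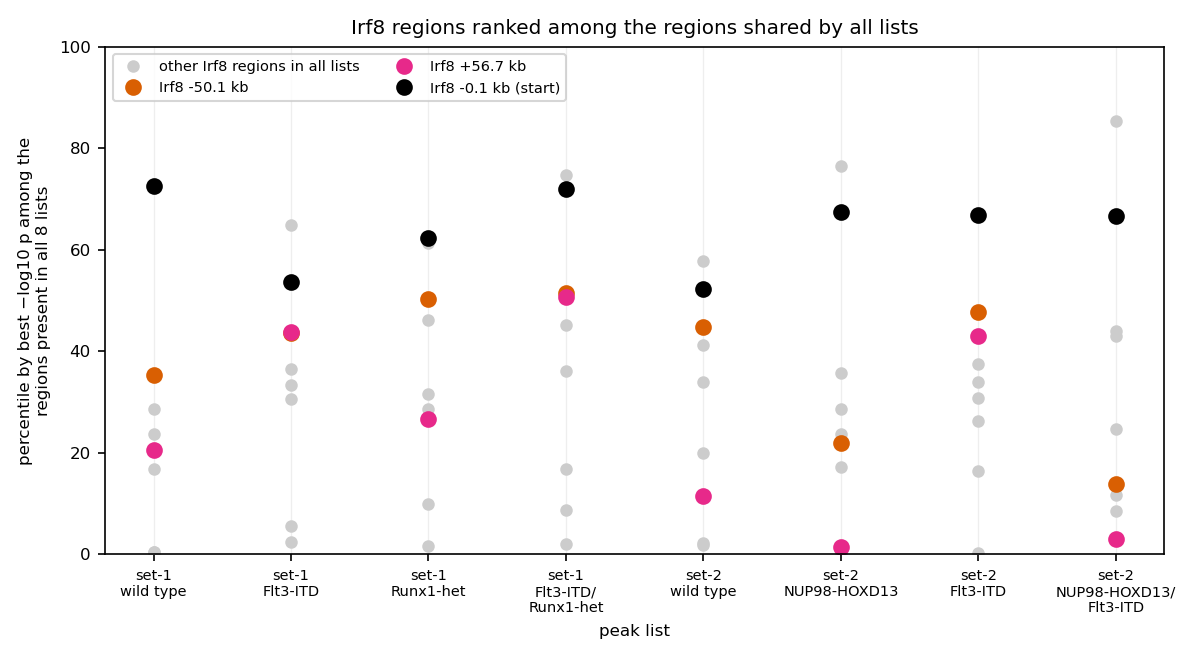
Percentile by best −log10 p among the 41626 regions present in all 8 lists (vertical axis) of the 9 Irf8 regions found in all of them, in each peak list (horizontal axis), 1 point per list. The -50.1 and +56.7 kb regions are lowest in both lists with NUP98-HOXD13, at 22.0 and 13.8 and at 1.41 and 3.05, while the start region stays between 52.2 and 72.5.

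At Klf4 the strongest region was a distal one. The +17.5 kb region (chromosome 4, 55514474 to 55515410), past the end of the gene, had −log10 p values of 171 in wild type, 210.2 in Flt3-ITD, 200.1 in Runx1-het and 211 in Flt3-ITD/Runx1-het of set 1. The set-2 values were 244 in wild type, 166 in NUP98-HOXD13, 48.8 in Flt3-ITD and 159 in NUP98-HOXD13/Flt3-ITD. It was first of the 6 always-present Klf4 regions in 6 lists by −log10 p and in all 8 by fold enrichment. Its summits lay within 21 bp of each other. The start region (55532153 to 55533249), which also covers the start of the long non-coding RNA gene Gm12506, had 121, 111, 153 and 172 in set 1 and 212, 143, 57.2 and 181 in set 2, in the same order. The start was first in set-2 Flt3-ITD and in NUP98-HOXD13/Flt3-ITD.

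The region at +1.9 kb, inside Klf4 (55530032 to 55531190), had −log10 p of 30.9 in wild type, 48.8 in Flt3-ITD, 56.3 in Runx1-het and 89.99 in Flt3-ITD/Runx1-het. The set-2 values were 35.8 in wild type, 31.2 in NUP98-HOXD13, 8.44 in Flt3-ITD and 18.01 in NUP98-HOXD13/Flt3-ITD. Within set 1 the wild type was lowest and the combined genotype highest. Among shared regions its percentile ran from 2.45 to 41.8, the highest again in Flt3-ITD/Runx1-het. Ranked by fold enrichment, that percentile was far lower, from 0.0913 in NUP98-HOXD13/Flt3-ITD to 5.87 in Flt3-ITD/Runx1-het. By fold the region took the last place of the 6 always-present Klf4 regions in every list. A region at -53.9 kb (55585955 to 55586737), also within lncRNA spans, had −log10 p of 42.5 to 113, and those at +43.4 kb (55488512 to 55489739) and +59.5 kb (55472623 to 55473247) had 13.1 to 94.9 and 14.2 to 76.7.

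Gains and losses of whole regions were counted against the wild type of the same set. A gain is a peak in the mutant list with none in the wild-type list, and a loss the reverse. In set 1, Flt3-ITD gained 6 of the 71 regions (background 13.6%) and lost 4 (7.35%). Runx1-het gained 12 (15%) and lost 5 (6.31%), and Flt3-ITD/Runx1-het gained 17 (15.6%) and lost 6 (7.94%). In set 2, NUP98-HOXD13 gained 5 (8.85%) and lost 10 (17.3%), and Flt3-ITD gained 2 (3.29%) and lost 20 (28.7%). NUP98-HOXD13/Flt3-ITD gained 7 (8.09%) and lost 7 (18.8%). As a measure of the difference between lists of equal genotype, set-2 wild type gained 12 (18.9%) and lost 6 (5.63%) against set-1 wild type. Set-2 Flt3-ITD gained 2 (4.4%) and lost 16 (22.9%) against set-1 Flt3-ITD. The order of the 2 wild types is arbitrary, and taken the other way set-1 wild type gained 6 and lost 12. These counts therefore set no limit for mutant gains or for mutant losses taken singly. Either way the 2 wild types differed by 12 regions in 1 direction and 6 in the other. The mutant comparisons above ran from 6 and 4 in set-1 Flt3-ITD to 17 and 6 in Flt3-ITD/Runx1-het. Comparisons within a set share their wild-type list.

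**Figure D4:**
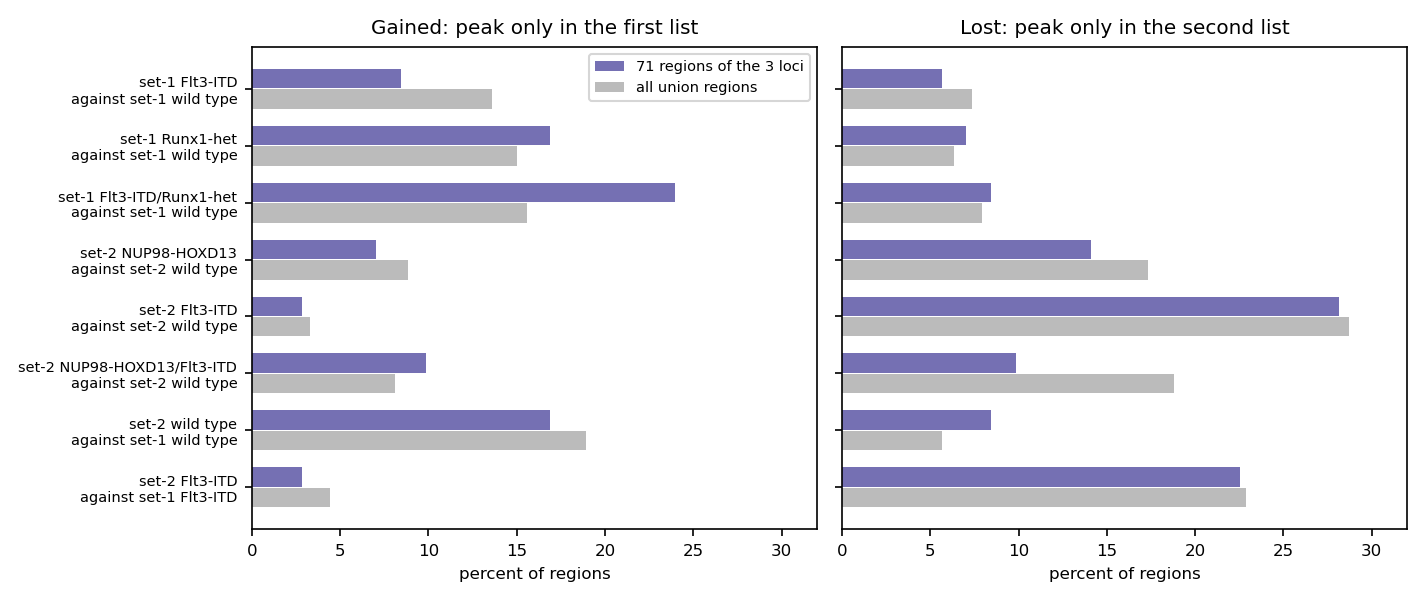
Percent of regions gained (left) and lost (right) in each comparison of 2 peak lists, for the 71 regions of the 3 genes and for all 122020 union regions, with 1 list per group and no error bars. The largest share gained by the members is that of Flt3-ITD/Runx1-het, at 23.9%, beside 15.6% of all union regions. The largest share lost is that of set-2 Flt3-ITD, at 28.2%, near the 28.7% of all union regions.

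Of the 17 regions gained in Flt3-ITD/Runx1-het, 12 lay at Irf8, which is 31.6% of its 38, beside 15.6% of all union regions. With the wild type of set 2 instead, 9 of 38 (23.7%) were gained, beside 10.9% of all union regions, and with equal numbers of peaks 8 of 33 (24.2%), beside 12.4%. Within 40 kb of Irf8 it was 9 of 20, again beside 15.6%. Of the 8 Irf8 regions found in 1 list, 5 belonged to this list, at -38.5, -27.0, -19.6, +47.9 and +68.2 kb, where 18.02% of all regions found in 1 list belonged to it. Their −log10 p was 9.29 to 24.3, under the median of 34.6 over the peaks of that list. Gfi1 gained 2 of 17 regions and Klf4 3 of 16 in the same comparison. Shares above that of Irf8 were also found among the other genes of myeloid fate described below. Hhex gained 7 of 22 regions, F13a1 6 of 13 and Ly6c2 6 of 11, and the remaining genes of that list had smaller shares than Irf8.

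Regions that followed 1 mutation across both lists of a set were few, and none was in the top 25% of any list. With Flt3-ITD in set 1, Irf8 +32.4 kb (120768455 to 120769153) and Klf4 +76.9 kb (55455370 to 55455826) had a peak in both lists with it and neither without, 2 of 71 (background 2.79%). The Irf8 region had −log10 p of 10.7 in Flt3-ITD and 20.4 in Flt3-ITD/Runx1-het, and it was in no other list of the 8. The Klf4 region had 10.8 and 13.8 in these lists, and 22.2 in NUP98-HOXD13/Flt3-ITD of set 2. Irf8 +85.3 kb showed the reverse (1 of 71, background 1.78%). With Runx1-het, Irf8 -10.9, +7.8 and +95.9 kb were present in both lists and absent from both without it (3 of 71, background 2.38%), and Gfi1 -68.3 kb the reverse (1, background 1.15%). The +7.8 kb region (120743936 to 120744288), inside Irf8, had −log10 p of 34.6 in Runx1-het and 22.4 in Flt3-ITD/Runx1-het and was in no other list. Those values were at percentiles 37.1 and 20.4 of the regions of their lists. The -10.9 kb region had 44.5 in Runx1-het and 14.7 in Flt3-ITD/Runx1-het, at percentiles 46.0 and 8.92. The -10.9 kb and +95.9 kb regions were also present in set-2 wild type and NUP98-HOXD13/Flt3-ITD, and -10.9 kb in NUP98-HOXD13 as well.

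With NUP98-HOXD13, Irf8 -55.7 and +64.4 kb and Klf4 -53.0 kb were present in both lists and absent from both set-2 lists without it (3 of 71, background 2.8%). The reverse held for 0 (background 2.07%). Irf8 -55.7 and Klf4 -53.0 kb were also in set-1 wild type, and Irf8 +64.4 kb was in set-1 Flt3-ITD and Runx1-het. With Flt3-ITD in set 2, 0 members followed the mutation by presence (background 0.452%). By absence, Gfi1 -62.4 and -63.9 kb and Klf4 +51.9 kb did (3, background 4.5%). The Klf4 +51.9 kb region was in all 4 set-1 lists, 2 of them with Flt3-ITD. In set 1, Gfi1 -62.4 kb was present in Flt3-ITD/Runx1-het only and Gfi1 -63.9 kb in Runx1-het only.

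Other genes of myeloid fate were set beside the 3 members. The list held 36 genes, among them the lineage factors Spi1, Cebpa, Irf4, Zeb2 and Gfi1b, the receptors Csf1r and Csf3r, and the granule genes Mpo and Elane. All 36 had union regions in the same window, 818 distinct ones. Of these, 298 (36.4%) had a peak in all 8 lists, and the median share over the 36 genes was 36.9%. Gfi1, with 52.9%, was exceeded by 2 genes of the list, Cd14 and Csf2ra. Klf4, with 37.5%, was exceeded by 16, and Irf8, with 23.7%, by 31. In Flt3-ITD/Runx1-het the list gained 155 of 818 regions (18.9%) and lost 58 (7.09%). In NUP98-HOXD13 it gained 60 (7.33%) and lost 111 (13.6%). In set-1 Flt3-ITD it gained 104 (12.7%) and lost 57 (6.97%), and in Runx1-het it gained 131 (16.01%) and lost 49 (5.99%).

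The genes most like each member were taken from the same list, by Pearson's r over the 8 lists of the share of regions with a peak, less that share over all regions of the list. For Irf8 they were Hhex (r = 0.924), Cebpe (0.797) and Batf3 (0.729), a transcription factor of dendritic cells. For Klf4 they were Batf3 (0.853), Irf1 (0.842) and Ctss (0.779). For Gfi1 the values were lower, with its paralogue Gfi1b at 0.458, Ccr2 at 0.377 and Ly86 at 0.340. The 8 lists differ in length and each supplies 1 point for all genes, so these are descriptions only.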

How the data were processed

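Per the submitters' processing notes, the authors used Bowtie2 and MACS2, without versions, and the build mm10 (GRCm38). Thresholds, read shifting and duplicate removal were not given in the sources used here. The deposited lists give a fold enrichment (a ratio) for every peak, a −log10 p and a score of 413 to 1000 whose meaning no label states, as the authors made them. The deposited summit offset (another value of the list) placed the summits. Values were ranked within 1 list, and the score selected no peak.

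Peaks overlapping by at least 1 bp were merged into union regions (Python 3.11.15, pandas 2.3.3), and the best peak in a list gave its value. Distances run from the first RefSeq start to the region's midpoint, positive in the direction of transcription. The gene and promoter tables were of GRCm38.p6, and exons were not known. With 1 list per group no p-value was computed, and counts stand beside those over all regions. The code was tested on simulated data.

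The members and lists were chosen with earlier results of these data known. Regions named by rule were the start region and the 4 of highest median percentile per gene, and those following 1 mutation in a set. Others, such as Irf8 +56.7 kb, were chosen after their values were seen. Alternatives were equal numbers of peaks, a stricter threshold, another merging overlap, a 40 kb window, the other wild type and ranking by fold enrichment.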

Additional observations from a re-analysis of the deposited data

Results flagged for a closer look

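Gfi1 +24.7 kb (chromosome 5, 107700823 to 107701343) went opposite ways with Flt3-ITD in the 2 sets. In set 1 it had a peak in Flt3-ITD, with −log10 p of 29.4, and none in wild type. In set 2 it had a peak in wild type, at 23.3, and none in Flt3-ITD. It was also present in Runx1-het (12.9), Flt3-ITD/Runx1-het (21.2) and NUP98-HOXD13/Flt3-ITD (19.7). The difference between the sets was not tested, and 6338 union regions (5.19%) showed the same pattern.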

How the results depend on the processing

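Of 133 alternative values, 96 stayed close to the reported value and 37 moved. Close meant within a factor of 1.5 for a count and within 10 points for a median percentile. For a share it meant inside the 95% interval of the reported share, which treats the regions as independent. These limits are wide, since 50.9% present in set-2 Flt3-ITD with equal numbers of peaks, against 40.8% reported, counted as close. A window of 40 kb, which holds fewer regions, gave 47.4% in all 8 lists and 52.6% in set-2 Flt3-ITD. Its gains and losses are out of 38 regions in place of 71, while the shares over all union regions are those given above. They were 3 and 1 in set-1 Flt3-ITD, 7 and 1 in Runx1-het and 10 and 2 with both of these. In set 2 they were 1 and 3 in NUP98-HOXD13, 1 and 8 in Flt3-ITD and 1 and 1 in NUP98-HOXD13/Flt3-ITD. With the wild type of the other set, set-1 Flt3-ITD lost 10 of the 71 regions, Runx1-het gained 5 and NUP98-HOXD13 lost 5. Set-2 Flt3-ITD then gained 4 and NUP98-HOXD13/Flt3-ITD gained 12. With the 84080 strongest peaks of every list, 57 member regions were left. Of these, Flt3-ITD/Runx1-het gained 9, beside 12.4% of all union regions. NUP98-HOXD13 gained 3 and lost 3, set-2 Flt3-ITD lost 9 and NUP98-HOXD13/Flt3-ITD lost 3. With −log10 p of at least 10, set-2 Flt3-ITD gained 1 of 70 regions. For the other counts under these settings, shares over all union regions are not given here. In the top 10%, 7 lists held 1 strong member, Gfi1 -33.7 kb, and NUP98-HOXD13/Flt3-ITD held 2. Ranked by fold enrichment, median percentiles were 37.5 for the Gfi1 start (72.6 by −log10 p), 50.3 for the Klf4 start (83.3), 83.9 for Klf4 -53.9 kb (68.8) and 70.1 for Klf4 +59.5 kb (57.7). Beyond the smaller number of regions at 40 kb and in the top 10%, the cause was not tested. No paired analysis was possible because both samples of a group share 1 pooled list, and for that reason no sample could be left out. Depth was unknown, so a missing peak does not show closed chromatin.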
